A study of Mus musculus with 4 samples.

Results

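The proteasome subunit genes were followed through maps of p53 and PPAR-alpha binding in mouse thymus. The genes were all RefSeq protein-coding genes of the mouse assembly GRCm38.p6 whose symbol starts with Psm, a letter from a to g and a digit, without the immunoproteasome genes Psmb8, Psmb9 and Psmb10. They numbered 48 of 21887 protein-coding genes on chromosomes 1 to 19, X and Y. Of these, 16 encode the core particle (Psma and Psmb), 6 the ATPases (Psmc), 14 the other lid and base proteins of the regulatory particle or assembly chaperones of its base (Psmd, called lid and base genes below), 5 activators (Psme), 1 an inhibitor (Psmf1) and 4 assembly chaperones (Psmg). The other 2 match by name alone. They are Psmc3ip, a gene of meiotic recombination, and Psme3ip1, whose product binds the activator PSME3.

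Chromatin was immunoprecipitated from the thymus of mice of genotype p53 AD/AD, killed at 4 weeks of age, and sequenced. All animals carried the altered p53 in the germline, and its protein is described in the series design as dimeric. The libraries were 2 for p53 (replicates 1 and 2, reads of 50 nt), 1 for PPAR-alpha (75 nt) and 1 input (50 nt). The input has no list among the files used here. No wild-type or p53-null library was part of the design, so every value below belongs to p53 AD/AD tissue. The labels do not say that the p53 libraries came from separate mice, and a difference between them may be technical. Antibody and read length changed together between p53 and PPAR-alpha and cannot be told apart.

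The authors deposited 1 list of summits per library, a summit being the base of highest signal in a called peak. The lists held 3608, 4767 and 4070 summits for p53 replicate 1, p53 replicate 2 and PPAR-alpha. Each summit has the authors' score, read here as a p- or q-value on a −log10 scale, with medians of 3.99, 3.62 and 4.70. Scores were used only within their own list. Read numbers are unknown, so depth could not be set beside the counts. Of 15 thymocyte marker genes, 12, 14 and 12 had a summit within 5 kb of a gene end in the 3 lists, and 10 had one in all of them, among them Cd3e, Rag1 and Satb1. Of 9 markers of cortical thymic epithelium 0, 3 and 0 did, of 5 B cell markers 0, 0 and 0, and of 5 myeloid markers 1, 1 and 1. Of all protein-coding genes 12.9, 16.4 and 12.3% had a summit within 5 kb. Beside these shares, lists of 9 and 5 genes are too short for a count of 0 to show that such cells were absent. The input may have served as control for all 3 lists, which is not given in the sources used here.

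The proteasome is the main protease of the cytosol and nucleus and degrades proteins tagged with ubiquitin. Its core particle is a barrel of stacked rings. The alpha subunits form the outer rings that gate entry, and the beta subunits form the inner rings that hold the active sites. The regulatory particle caps the barrel, recognises ubiquitin and unfolds the substrate with its ring of ATPases. Proteasome genes are transcribed in nearly all cells, and the transcription factor NFE2L1 raises them together when proteolysis fails. In the thymus the proteasome also makes the peptides on which T cells are selected. The stability of p53 itself is set by ubiquitination and proteasomal decay.

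The promoters of 5 genes are shown because they carried summits in 2 or 3 lists within 1 kb of a gene end and close to an annotated start. Psma6, with summits in 2 lists near a start inside the gene, far from its ends, is not shown. Each line gives the bases just upstream of the RefSeq start in GRCm38.p6, read 5′ to 3′ in the direction of the gene. Psma2 is cut where the neighbouring gene Mrpl32 begins. Capitals mark matches on either strand to 7 searched motifs. They were the ETS core CCGGAAG, the CCAAT box, the antioxidant response element TGACNNNGC, at which NFE2L1 acts, and TGCGCA, a half-site of nuclear respiratory factor NRF1, which is not NFE2L1. The others were AGGTCA, a half-site of PPAR-alpha and other nuclear receptors, TCGCGA, the centre of a palindrome bound by BANP, and the p53 half-site. TCGCGA was added after the Psmd5 sequence was seen.
Psma2 (chr13:14613038-14613241, plus strand): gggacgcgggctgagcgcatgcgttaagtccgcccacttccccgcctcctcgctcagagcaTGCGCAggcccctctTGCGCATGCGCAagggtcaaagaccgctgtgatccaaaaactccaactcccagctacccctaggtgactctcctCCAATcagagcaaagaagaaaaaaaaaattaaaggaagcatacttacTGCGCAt
Psmc1 (chr12:100109952-100110201, plus strand): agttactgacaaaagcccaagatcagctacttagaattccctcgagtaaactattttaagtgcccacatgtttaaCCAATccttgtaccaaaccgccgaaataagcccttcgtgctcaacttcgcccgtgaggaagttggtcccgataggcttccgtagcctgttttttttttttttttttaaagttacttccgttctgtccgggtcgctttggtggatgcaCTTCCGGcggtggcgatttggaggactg
Psmd1 (chr1:86064369-86064618, plus strand): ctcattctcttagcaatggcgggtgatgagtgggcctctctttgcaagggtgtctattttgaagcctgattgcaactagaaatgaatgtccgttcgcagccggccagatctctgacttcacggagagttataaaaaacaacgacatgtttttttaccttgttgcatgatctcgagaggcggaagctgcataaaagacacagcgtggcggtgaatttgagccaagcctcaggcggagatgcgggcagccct
Psmd5 (chr2:34870963-34871212, minus strand): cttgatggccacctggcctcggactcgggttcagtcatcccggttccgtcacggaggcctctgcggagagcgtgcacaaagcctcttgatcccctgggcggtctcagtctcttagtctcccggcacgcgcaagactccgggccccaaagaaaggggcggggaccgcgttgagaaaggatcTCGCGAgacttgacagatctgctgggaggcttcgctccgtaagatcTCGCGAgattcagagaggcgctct
Psme3 (chr11:101315963-101316212, plus strand): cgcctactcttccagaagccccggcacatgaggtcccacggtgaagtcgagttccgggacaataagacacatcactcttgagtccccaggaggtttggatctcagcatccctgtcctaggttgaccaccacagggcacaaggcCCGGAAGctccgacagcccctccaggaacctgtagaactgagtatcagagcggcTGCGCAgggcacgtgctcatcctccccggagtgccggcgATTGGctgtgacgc

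Psma2, a gene of the alpha ring, had the highest summit of all proteasome genes in each list. It scored 33.5 in p53 replicate 1 (position 14613140 of chromosome 13), 37.3 in p53 replicate 2 (14613100) and 37.1 in PPAR-alpha (14613105). The 3 summits lay within 40 bp of each other, 102, 142 and 137 bp upstream of the Psma2 start. They ranked 50 of 3608, 49 of 4767 and 94 of 4070 in their lists. They fell inside the 204 bases printed above, between Psma2 and Mrpl32, a gene of the mitochondrial ribosome that is transcribed in the opposite direction. Mrpl32 begins 205 bp from the Psma2 start and lay 103, 63 and 68 bp from the summits, nearer than Psma2 in p53 replicate 2 and PPAR-alpha. Which of both genes a summit belongs to cannot be told apart. Among the other 47 genes no summit within 5 kb reached a score of 10 in any list.

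The Psma2 stretch held 4 matches to TGCGCA, at positions -143 to -138, -128 to -123, -122 to -117 and -7 to -2 from the start, and a CCAAT box at -54 to -50. The middle pair of TGCGCA matches adjoin. The summits of p53 replicate 2 and PPAR-alpha lay over or beside the first match and that of p53 replicate 1 lay downstream of the pair. Psmc1 had the CCAAT box and the ETS core, and Psme3 had these and TGCGCA. Psmd1 had none of the motifs in its printed stretch. Psmd5 had TCGCGA at -70 to -65 and -24 to -19. No printed stretch held the p53 half-site or AGGTCA. That says only that these letters were not in these windows.

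How often did p53 and PPAR-alpha summits lie at proteasome genes? Within 1 kb of either gene end, 8 of the 48 genes had a summit in p53 replicate 1, where 9.21% of all protein-coding genes did. In p53 replicate 2 there were 14 of 48, beside 11.9% of all genes, and in PPAR-alpha 7 of 48, beside 8.8%. As shares these are 16.7% (exact Clopper-Pearson 95% interval 7.48 to 30.2%), 29.2% (17.0 to 44.1%) and 14.6% (6.07 to 27.8%). All 3 shares were above those of all genes, 1.81, 2.46 and 1.66 times. When each summit was given to its nearest gene only, the PPAR-alpha share fell below that of all genes, at 3 of 48 (6.25%) beside 7.40% within 1 kb and 4 of 48 (8.33%) beside 9.40% within 5 kb. The intervals of p53 replicate 1 and PPAR-alpha included the share of all genes and that of p53 replicate 2 did not. The intervals cover counting error only and treat genes as independent. p53 replicate 1 and PPAR-alpha differed by 1 gene in this count, and p53 replicate 2 had 6 more genes than p53 replicate 1 and 7 more than PPAR-alpha.

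The wider window added few genes. Within 5 kb, 9 of 48 had a summit in p53 replicate 1 (18.75%, beside 12.9% of all genes). In p53 replicate 2 there were 14 (29.2%, beside 16.4%) and in PPAR-alpha 8 (16.7%, beside 12.3%). The additions were Psmc6, 1618 bp from a p53 replicate 1 summit, and Psma6, 3844 bp from a PPAR-alpha summit. The largest distances inside 1 kb were 367 bp (Psmb1, p53 replicate 1), 580 bp (Psmd11, p53 replicate 2) and 765 bp (Psmb3, PPAR-alpha). Just outside 5 kb lay Psmg1 at 5208 bp in PPAR-alpha, Psmc3ip at 5209 bp in p53 replicate 1 and Psmb11 at 7042 bp in p53 replicate 2. A summit in any list was found within 1 kb of 19 of the 48 genes (39.6%, beside 19.0% of all genes). Within 5 kb it was 20 (41.7%, beside 24.7%).

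Both p53 replicates had a summit within 5 kb of 5 genes, 10.4% of the 48 beside 7.96% of all genes, and the same 5 within 1 kb, where all genes gave 5.07%. They were Psma2, Psmc1, Psmd1, Psmd5 and Psmg2. PPAR-alpha shared Psma2, Psmc1 and Psmg2, so that 3 genes were in all lists, 6.25% beside 4.87% of all genes within 5 kb and 2.8% within 1 kb. Psma3, Psma6 and Psme3 had summits in PPAR-alpha and p53 replicate 2. The other 12 genes were in 1 list each, 4 in p53 replicate 1, 6 in p53 replicate 2 and 2 in PPAR-alpha, and 28 were in none. Of the p53 replicate 1 genes 5 of 9 were also in replicate 2, and of the replicate 2 genes 5 of 14 were also in replicate 1. Over all genes these shares were 61.5% (1743 of 2834) and 48.6% (1743 of 3586), so incomplete overlap of the replicates was general. In 2 or 3 lists there were 8 of the 48 genes, 16.7% beside 12.1% of all genes.

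**Figure D1:**
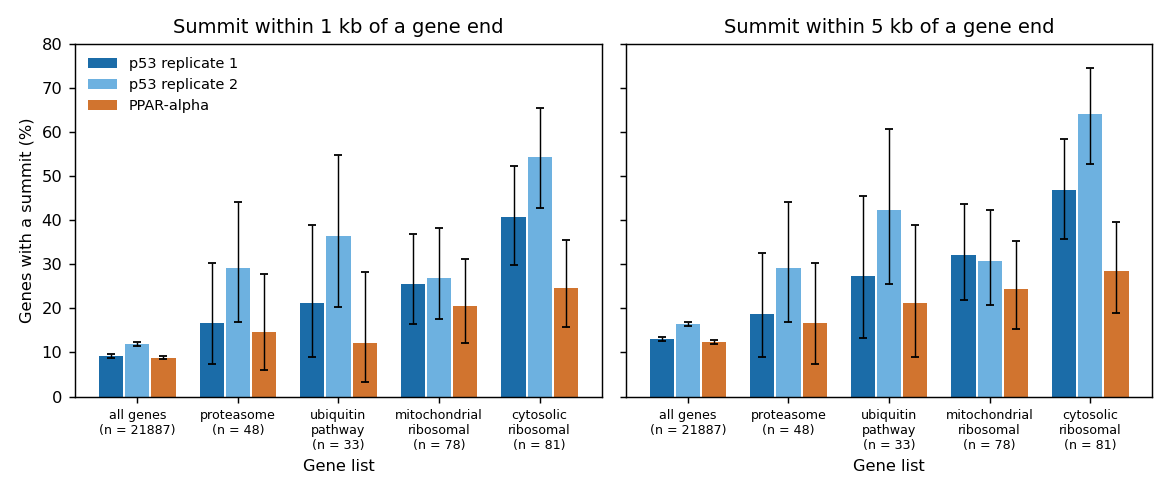
Share of genes in percent (vertical axis) with a summit within 1 kb (left) or 5 kb (right) of a gene end, by gene list and summit list. Bars are shares and lines exact 95% intervals. Proteasome genes reached 16.7, 29.2 and 14.6% within 1 kb in p53 replicates 1 and 2 and in PPAR-alpha, above all genes (9.21, 11.9 and 8.8%) and below cytosolic ribosomal protein genes.

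Most of these summits had low scores, and outside Psma2 all were under 10. Beside genes with a summit in general, the median was lower in p53 replicate 1 and PPAR-alpha. It was higher in p53 replicate 2. The highest summit within 1 kb of a proteasome gene had a median score of 3.66 in p53 replicate 1, where genes with a summit had 3.99 in general. In p53 replicate 2 it was 4.70 beside 3.62, and in PPAR-alpha 3.58 beside 4.70. A summit scoring at least 5 lay within 1 kb of 3 of the 48 genes in p53 replicate 1 (6.25%, beside 3.01% of all genes). In p53 replicate 2 it was 7 (14.6%, beside 3.67%) and in PPAR-alpha 1 (2.08%, beside 4.12%). In p53 replicate 1 these were Psma2, Psmd1 and Psmd5. In p53 replicate 2 Psma3, Psmc3, Psmd11 and Psmg2 joined them. In PPAR-alpha it was Psma2, and the next score was 4.13 at Psmb3.

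**Figure D2:**
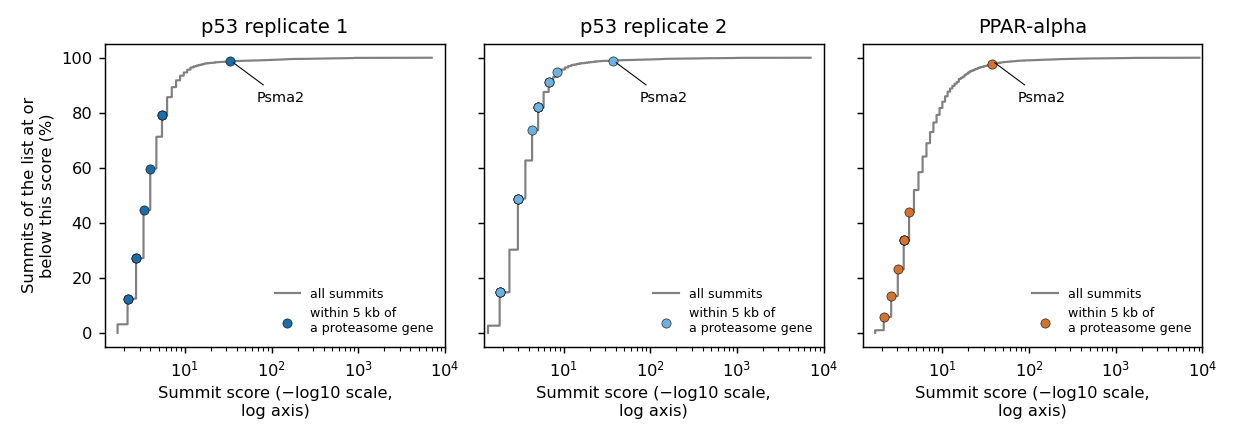
Cumulative share of all summits of a list (vertical axis, percent) at or below a score (horizontal axis, log scale), with summits within 5 kb of proteasome genes as points. The Psma2 points lie near the top of each list at 33.5, 37.3 and 37.1, and all others lie at 8.48 or lower.

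Of the core particle genes, 3 of 16 had a summit within 1 kb in p53 replicate 1, 5 in p53 replicate 2 and 3 in PPAR-alpha. These were 18.75, 31.25 and 18.75%, beside 9.21, 11.9 and 8.8% of all genes. The alpha ring had 1, 4 and 2 of 8, and the beta ring 2, 1 and 1 of 8. Psma3 lay beside a summit of 6.72 in p53 replicate 2 (70968896 of chromosome 12, 387 bp outside the gene) and one of 3.06 in PPAR-alpha (70968693, 590 bp outside), with none in p53 replicate 1. The RefSeq start in the promoter table lies inside the gene, over 5 kb from these summits. Psma6 had 1.83 in p53 replicate 2, beyond its far end and 378 bp from it, and 2.57 in PPAR-alpha inside the gene. Those summits were 30771 bp apart and are separate sites. Psma6 has another RefSeq start inside the gene, far from both gene ends and so outside the count. Near it lay a p53 replicate 2 summit of 2.37 and a PPAR-alpha summit of 5.91, at -719 and -194 bp from that start. Psma7 had 1.83 in p53 replicate 2 alone, 254 bp upstream of its start and 235 bp from the start of Ss18l1.

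In the beta ring no gene had a summit in more than 1 list. Psmb5, which encodes the chymotrypsin-like active site, had 2.97 in p53 replicate 2, 273 bp upstream of its start. Psmb1 had 3.99 and Psmb2 had 2.74 in p53 replicate 1, 367 bp inside and 27 bp outside the gene. Psmb3 had 4.13 in PPAR-alpha, 765 bp upstream of its start, and that summit was nearer to Pcgf2, at 235 bp. Psmb6 and Psmb7, with the other active sites, had none within 5 kb, and their nearest summits were 34930 and 179626 bp away. Psma1, Psma4, Psma5 and Psmb4 had none either. Nor did Psma8, an alpha subunit of the testis.

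Psmb11 encodes the beta subunit of the thymoproteasome, which is made in cortical epithelial cells of the thymus. It had no summit within 5 kb. The nearest were 21406 bp away in p53 replicate 1, 7042 bp in p53 replicate 2 and 198553 bp in PPAR-alpha. The p53 replicate 2 summit is the one counted for the neighbouring gene Psmb5. The immunoproteasome genes, which supply alternative beta subunits in immune cells, are not in the 48. Psmb8 had 3 summits in p53 replicate 1 (scores 2.74, 3.34 and 3.34), 2 in p53 replicate 2 (3.62 and 2.37) and 1 in PPAR-alpha (5.30) within 5 kb, all also within 5 kb of the peptide transporter gene Tap1. Psmb10 had 1 in PPAR-alpha (4.70), inside the gene, and Psmb9 had none.

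**Figure D3:**
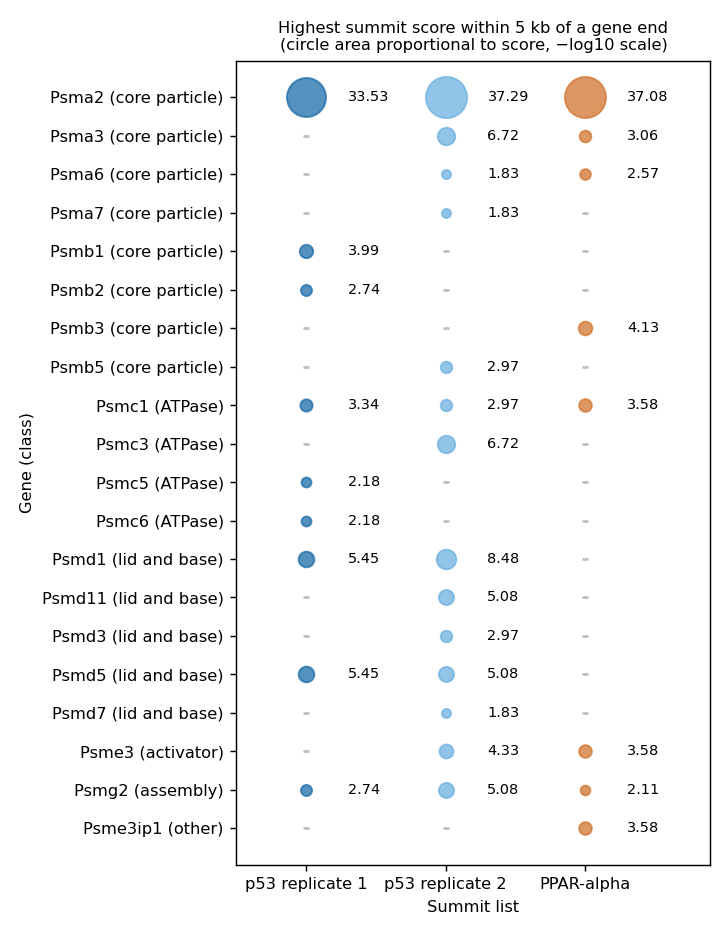
Highest summit score within 5 kb of a gene end for the 20 proteasome genes with a summit in any list, by class (rows) and list (columns). Circle area is proportional to the score printed beside it and dashes mark no summit. Psma2 has the largest circle in each column, and no lid or base gene has one under PPAR-alpha.

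The ATPase genes had 2, 2 and 1 of 6 within 1 kb (33.3, 33.3 and 16.7%), beside 9.21, 11.9 and 8.8% of all genes. Psmc1 was the one with a summit in each list, of 3.34 in p53 replicate 1 (100110262 of chromosome 12), 2.97 in p53 replicate 2 (100110106) and 3.58 in PPAR-alpha (100110256). Those of p53 replicate 1 and PPAR-alpha were 6 bp apart, 60 and 54 bp inside the gene, and that of p53 replicate 2 lay 96 bp upstream of the start. All 3 scored under the median of their list. Psmc3 had 6.72 in p53 replicate 2, 166 bp inside the gene. Psmc5 had 2.18 in p53 replicate 1, 65 bp past its start, with Ftsj3 on the other side at 166 bp. Psmc6 had 2.18 in p53 replicate 1 at 1618 bp. Psmc2 and Psmc4 had no summit within 5 kb.

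Among the 14 lid and base genes, 2 had a summit within 1 kb in p53 replicate 1 and 5 in p53 replicate 2. In PPAR-alpha there were 0, and the counts within 5 kb were the same. Within 1 kb the shares were 14.3, 35.7 and 0%, beside 9.21, 11.9 and 8.8% of all genes. The exact interval of the PPAR-alpha share, 0 to 23.2%, included the share of all genes. The difference between p53 and PPAR-alpha in this class was not tested. Psmd1, whose product is a scaffold of the base, had 5.45 in p53 replicate 1 (86064455 of chromosome 1) and 8.48 in p53 replicate 2 (86064547), 164 and 72 bp upstream of its start. The summits were 92 bp apart. Psmd5, an assembly chaperone of the base, had 5.45 (34871023 of chromosome 2) and 5.08 (34871162), 58 and 197 bp outside the gene on the side of its start and 139 bp apart. At both genes the p53 replicates gave summits on the same promoter. Psma2, Psmd1 and Psmd5 were the 3 proteasome genes with a score of at least 5 in both p53 lists.

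The other lid and base summits were in p53 replicate 2 alone. Psmd11 had 5.08, 580 bp inside the gene, Psmd3 had 2.97, 112 bp inside, and Psmd7 had 1.83, 499 bp inside. Psmd2, Psmd6, Psmd8, Psmd9 and Psmd13 had none within 5 kb, nor did Psmd4, a ubiquitin receptor, Psmd12 and Psmd14, which removes ubiquitin from substrates. The nearest summit to Psmd12 was 9055 bp away, in p53 replicate 1, and that to Psmd4 16562 bp away, in PPAR-alpha. Psmd10, known as the oncoprotein gankyrin, lies on X, where the 3 lists held 6, 9 and 16 summits in all. Its nearest was 9521277 bp away.

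Activators open the core without the regulatory particle. Psme3, the nuclear activator, had 4.33 in p53 replicate 2 (101316047 of chromosome 11, 166 bp upstream of its start) and 3.58 in PPAR-alpha (101315759, 454 bp upstream), 288 bp apart, and none in p53 replicate 1. Psme1 and Psme2, which are induced by interferon, had none within 5 kb, nor had Psme2b and Psme4. The inhibitor gene Psmf1 had none. Of the assembly chaperones, which build the core, Psmg2 had a summit in each list, of 2.74, 5.08 and 2.11 in p53 replicates 1 and 2 and in PPAR-alpha. They lay 280, 25 and 359 bp outside the gene, up to 334 bp apart, and 48, 207 and 127 bp from the end of its neighbour Cep76. Psmg1, Psmg3 and Psmg4 had none. Psme3ip1, not a proteasome subunit, had 3.58 in PPAR-alpha, inside the gene and close to Rspry1 and LOC115486880.

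**Figure D4:**
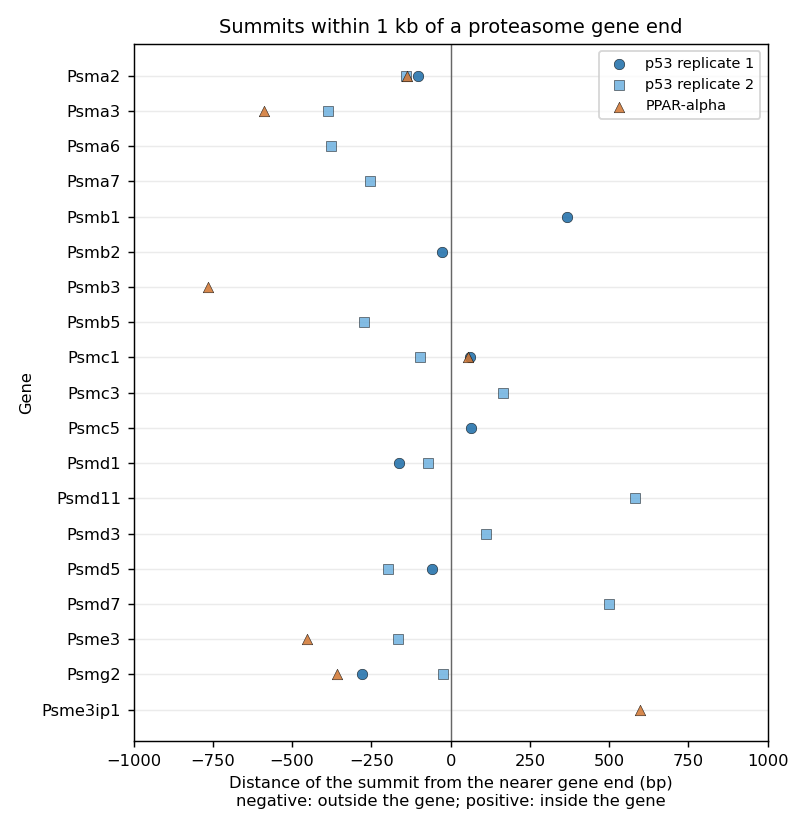
Distance in bp of each summit within 1 kb (horizontal axis) from the nearer end of its proteasome gene (rows), outside the gene to the left and inside to the right. Colours and shapes give the list. At Psma2 all 3 summits lie 102 to 142 bp outside the gene, and at Psmd1 and Psmd5 both p53 summits lie outside.

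Where on the genes did the summits lie? Of the 48 genes, 40 had a RefSeq start and strand in the promoter table. Those without were Psma8, Psmb1, Psmb2, Psmb7, Psmc3, Psmd3, Psmd7 and Psmg2. Summits within 1 kb of the 40 genes lay at the 5′ end of the gene model rather than the 3′ end in 5 of 5 cases in p53 replicate 1, 9 of 10 in p53 replicate 2 and 6 of 6 in PPAR-alpha. For all genes these shares were 93.1, 93.9 and 91.1%. Of the summits at the 5′ end, 3 of 5, 8 of 9 and 4 of 6 lay upstream of it, outside the gene, where all genes gave 38.1, 40.8 and 39.9%. Psma3 is counted by the 5′ end of its gene model, since its tabulated start lies inside the gene. The lists share genes, so these counts are not independent.

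Many summits could belong to a neighbour. The 3 lists held 31 summits within 5 kb of proteasome genes, and no summit was counted for more than 1 of them. Another protein-coding gene lay within 5 kb of 16 of the 31 and within 1 kb of 10, and in 7 cases it was nearer. By its nearest neighbour, a divergent partner with its start within 1 kb was found at 7 of the 40 genes with a strand. Of these, 5 had a summit within 1 kb in any list, as had 8 of the other 33 and 19.0% of all genes. The 5 include Psme3ip1, which is not a proteasome subunit. In 2 or 3 lists it was 1 of the 7 and 5 of the 33, so the contrast was seen only for any list. Neighbours of unknown strand were counted as not divergent. Among them were Dnajc2, 11 bp from the Psmc2 start, and AY074887, 173 bp from the Psma4 start. Psmc2 and Psma4 had no summit, so the contrast for any list may be smaller than these counts show. The pairs with a summit were Psma2 with Mrpl32, Psma7 with Ss18l1, Psmb3 with Pcgf2, Psmc5 with Ftsj3 and Psme3ip1 with Rspry1. Psmd13 with Sirt3 and Psme2 with Rnf31 had none. Psm pseudogenes, which can take reads from their parent genes, numbered 6 and had no summit within 5 kb in any list.

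How close were summits of different lists on the same gene? At the 5 genes with both p53 replicates the nearest summits were 40 to 255 bp apart with a median of 139 bp, and the median over all 1743 such genes was 151 bp. Within 100 bp they met at Psma2 and Psmd1, and at 40.9% of all such genes. Between p53 replicate 1 and PPAR-alpha the spacing was 6, 35 and 79 bp at Psmc1, Psma2 and Psmg2 (median 156 bp over 1405 genes). Between p53 replicate 2 and PPAR-alpha it ran from 5 bp at Psma2 to 30771 bp at Psma6, with a median of 246 bp at 6 genes and 166 bp at 1622.

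What did the promoters share beyond the lists? In windows from 250 bases before to 50 after the start, a gene was counted for a motif when any of its annotated starts had it on either strand. The 40 genes include Psmc3ip and Psme3ip1, which match by name alone, and both had the ETS core and the CCAAT box. Psme3ip1 is also among the genes with a summit. The ETS core was present in 16 of the 40 genes, or 40.0%, beside 12.9% of the 17492 protein-coding genes with an entry. It was in 5 of the 13 genes with a summit within 1 kb and 11 of the 27 without. Over all genes it was in 23.5% of the 3420 with a summit in any list. The CCAAT box was in 15 of 40 (42.3% of all genes; 40.4% of those with a summit), in 8 of 13 with a summit and 7 of 27 without. TGCGCA was in 6 of 40 (11.0%; 21.4% of all genes with a summit), and in 3 of the 6 with summits in 2 or 3 lists, Psma2, Psma3 and Psme3, though at Psma3 the window is not where the summits lay. TCGCGA was in 1 of 40, Psmd5 (3.81%; 7.08% of all genes with a summit).

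Motifs of the factors themselves and of NFE2L1 were counted the same way. The p53 half-site was in 2 of 40, Psmb11 and Psme2b, neither with a summit, and in 8.54% of all genes and 6.73% of those with a summit. AGGTCA was in 9 of 40, or 22.5%, 4 of 13 with a summit and 5 of 27 without, beside 16.7% of all genes and 13.1% of those with a summit. Summits of any list were counted here, and the 4 genes were Psma3, Psma6, Psma7 and Psmc5. Psma7 and Psmc5 had p53 summits only. The Psma6 summit within 1 kb was a p53 summit beyond the far end. At Psma3 the window is not where the summits lay. A PPAR-alpha summit outside the count lay near the other Psma6 start, and the Psma6 windows held AGGTCA. The antioxidant response element was in 6 of 40, or 15.0%, beside 14.8% of all genes, and Psmb5 was the one of them with a summit within 1 kb. Of all genes with a summit 16.6% had it. Proteasome promoters had a median GC content of 57.3% and a median ratio of observed to expected CpG of 0.772, beside 56.3% and 0.576 for all genes. For genes with a summit in any list these were 54.7% and 0.840 among the 13 proteasome genes and 62.0% and 0.832 in general.

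Genes that supply ubiquitin to the proteasome or regulate it were taken from a list of 33 that the name rule does not cover. Within 5 kb, 9 had a summit in p53 replicate 1 (27.3%), 14 in p53 replicate 2 (42.4%) and 7 in PPAR-alpha (21.2%). All genes gave 12.9, 16.4 and 12.3%. Within 1 kb there were 7, 12 and 4 (21.2, 36.4 and 12.1%), beside 9.21, 11.9 and 8.8% of all genes. The ubiquitin genes Ubb (3.34 and 3.62) and Rps27a (4.70 and 5.08) had summits in each p53 replicate but none in PPAR-alpha, those of Rps27a also beside Clhc1 and Mtif2. The strongest p53 summits of this list were at Rad23b, a shuttle that carries ubiquitinated proteins to the proteasome, with 10.7 and 14.3 at 94 and 68 bp from the gene end. The nearest PPAR-alpha summit to Rad23b was 6462 bp away. Ngly1, whose enzyme activates NFE2L1, had nearest summits of 4.70 and 5.08 in the p53 replicates, which lay nearer to its neighbour Oxsm, and the shuttle gene Ubqln1 had 3.99 and 3.62, both without PPAR-alpha.

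Midn had a summit within 5 kb in each list. Nfe2l2 and Ubqln4 had one in p53 replicate 2 and PPAR-alpha, and Faf2 in p53 replicate 1 (5.45) and PPAR-alpha (5.30). In all, 11 of the 33 had summits in 2 or 3 lists within 5 kb, beside 12.1% of all genes. Nfe2l1 had none, with the nearest summit 127500 bp away. Neither did Adrm1, Sem1, Usp14 and Uchl5, whose products sit on the regulatory particle.

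Other large complexes were counted beside the proteasome. Within 1 kb, 33, 44 and 20 of 81 cytosolic ribosomal protein genes had a summit (40.7, 54.3 and 24.7%). Among 78 mitochondrial ribosomal protein genes it was 20, 21 and 16 (25.6, 26.9 and 20.5%), above the proteasome in p53 replicate 1 and PPAR-alpha and below it in p53 replicate 2. Of the 8 genes of the chaperonin CCT, 3, 4 and 3 had one (37.5, 50.0 and 37.5%). All genes gave 9.21, 11.9 and 8.8% within 1 kb. These differences between gene lists were not tested.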

How the data were processed

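The data were 3 summit lists from p53 AD/AD mouse thymus. The authors deposited positions and a score per summit, called in each library alone. No label states the unit of the deposited scores, which were taken from their values as p- or q-values on a −log10 scale. The submitters' processing notes list MACS2 2.1.2, Bowtie2 2.3.4.2 and Picard 2.9.0 without saying what each did. For the threshold and the control, the sources used here say nothing. The same notes name GRCh38 for mouse tissue. Positions were read on the mouse assembly GRCm38.p6, on which thymocyte marker genes had summits.

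Positions were counted from 1. A gene had a summit when one lay within 1 kb or 5 kb of either annotated end, at any distance between lists. Counts were set beside all 21887 protein-coding genes, with exact 95% intervals and no test (Python 3.11.15, scipy 1.17.1). The counting was tested on simulated summits. Strand, starts and promoter sequences came from the RefSeq promoter table of GRCm38.p6, matched by symbol and gene ID. Named genes were all with summits in 2 or more lists, those in 1 list, the 5 nearest without, Psmb8 to Psmb11, and pathway genes in 2 or more lists, some of which are not reported here. Of the marker genes, Ctsv was not matched. The members, lists and comparison complexes were chosen with earlier results of these data known. Alternatives were other windows, score limits, gene assignment, dense runs, single replicates and starts only.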

Additional observations from a re-analysis of the deposited data

How the results depend on the processing

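Of 112 recounts, 77 stayed within 1.5 times the reported count. Leaving out dense runs, summits scoring 50 or more or names outside the proteasome, a 2 kb window, and adding summits inside genes moved none past it. The 112 include each class recounted with 5 kb in place of 1 kb. All of those stayed, some with no gene in either window. Recounts of each list with 500 bp, 2 kb and 20 kb enter under both windows. The share that stayed is therefore not a measure of stability. For p53 replicate 1, p53 replicate 2 and PPAR-alpha in turn, a score of at least 5 left 3, 7 and 1 genes and of at least 10 left 1, 1 and 1, within 1 kb as within 5 kb. With 20 kb p53 replicate 1 had 15 in place of 8 or 9, and PPAR-alpha 12 in place of 7. With 500 bp PPAR-alpha had 4. With the nearest gene only it had 3 within 1 kb and 4 within 5 kb, 6.25 and 8.33% beside 7.40 and 9.40% of all genes, so its share turned from above to below. A score of at least 5 turned it too, to 2.08% beside 4.12% within 1 kb. With RefSeq starts only, an alternative added after the data were seen and open to 40 genes, p53 replicate 1 had 5 within 1 kb and p53 replicate 2 had 9 at both windows. The 5 genes in both p53 lists became 11 with 20 kb, 3 at a score of at least 5, 1 at 10, 3 with the nearest gene only and 2 with summits within 100 bp. With p53 replicate 1 on its own there were 9, and with p53 replicate 2 on its own 14. The 3 genes in all lists became 6 with 20 kb, 1 at a score of at least 5 or 10, 1 with the nearest gene only, 1 with summits within 100 bp, and 3 to 6 without p53 replicate 2 or 1. A score limit and the nearest gene only count fewer summits, so the counts could only stay or fall there. Why the PPAR-alpha share fell below that of all genes was not tested.

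No paired analysis was possible because the PPAR-alpha group has a single library, without a number in the labels. Weak scores limit most values: 1 of the 48 genes had a summit of at least 10 in any list.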
